A study of Mus musculus with 30 samples.

Results

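The mammalian circadian clock is a feedback loop of transcription. ARNTL (also called BMAL1) and CLOCK form the activator that binds E-box sequences, it drives the *Per* and *Cry* genes, and the PER and CRY proteins then repress it. REV-ERBα and REV-ERBβ, encoded by *Nr1d1* and *Nr1d2*, repress *Arntl* and stabilise the loop, and DBP is an output factor that binds D-box sequences. *Per1* and *Per2* are also known as genes that acute stimuli, such as glucocorticoids and cAMP signalling, can induce outside the daily rhythm.

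The clock genes described here were a list of 10, named by symbol: the activators *Arntl* and *Clock*, the repressors *Per1*, *Per2*, *Per3*, *Cry1* and *Cry2*, the loop-stabilising receptors *Nr1d1* and *Nr1d2*, and the output factor *Dbp*. All 10 were listed in both fractions, among 24601 genes in the muscularis externa (ME) and 26179 in the RiboTag fraction. The rule that names them uses no measured value.

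The study followed the small-bowel ME of mice through postoperative ileus (POI), a transient loss of gut motility after abdominal surgery that was modelled by intestinal manipulation (IM), in which the exposed bowel is rolled with cotton swabs. ME is the total RNA of the muscle layer. RiboTag is the mRNA precipitated with a haemagglutinin (HA) tag on the ribosomal protein RPL22, which Cre recombinase switches on. Libraries came from naïve mice and from mice killed at 3 times after IM, 3 h (IM3h), 24 h (IM24h) and 72 h (IM72h), with 3, 3, 4 and 4 libraries in ME and 3, 4, 4 and 4 in RiboTag.

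Every group carried the *Rpl22tm1.1Psam* allele, but the Cre line differed. ME naïve and ME IM3h libraries are labelled as *Gfap-cre* (*B6.Cg-Tg73.12Mvs/J*) crosses. ME IM24h, ME IM72h and all RiboTag libraries are labelled as *Sox10-icre/ERT2* (388Wdr) crosses, in which tamoxifen given on 3 consecutive days activates Cre in *Sox10*-expressing cells, which in the gut are mainly enteric glia. The mice were males aged 10 to 12 weeks, and the operated ones received isoflurane and tramadol. The hour of day at which each mouse was killed is not given in the sources used here, so time after IM and time of day cannot be told apart in any clock gene value. In ME, the Cre line and the 2 later times cannot be told apart either, and the library numbers of ME IM24h and ME IM72h form ranges of their own whose meaning is not given. Sham-operated mice were not analysed here.

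Library totals were 6603170 to 12866062 counts in ME and 3010306 to 7899493 in RiboTag. The rRNA-derived entry AY036118 took 2.02% to 13.98% of the counts in naïve and IM3h RiboTag libraries, 22.21% to 59.24% at IM24h and 58.02% to 80.08% at IM72h. In ME it took 16.12% to 33.49% in naïve and IM3h libraries and 1.33% to 6.5% later. The glial marker *Sox10* stood at 486 to 1040 CPM (counts per library total, after edgeR's TMM scaling between libraries) in naïve RiboTag libraries against 14.8 to 18.7 CPM in naïve ME. It was at 0 to 11.9 CPM in IM72h RiboTag libraries, so the glial label was not borne out by that marker there. The summed level of 6 smooth muscle markers was 4880 to 7530 CPM in naïve RiboTag libraries, so the precipitate also held muscle RNA.

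The promoters of the clock genes are shown first, because the activator and the output factors act through short sequences in them. RefSeq promoter windows (250 bases before to 50 bases after the annotated start, build GRCm38.p6) were matched for 9 of the 10 genes, all but *Per2*. The 3 windows printed belong to genes that rose in both fractions at IM3h, with capitals marking an E-box (CACGTG) or its variant CACGTT, searched on both strands.
Per1: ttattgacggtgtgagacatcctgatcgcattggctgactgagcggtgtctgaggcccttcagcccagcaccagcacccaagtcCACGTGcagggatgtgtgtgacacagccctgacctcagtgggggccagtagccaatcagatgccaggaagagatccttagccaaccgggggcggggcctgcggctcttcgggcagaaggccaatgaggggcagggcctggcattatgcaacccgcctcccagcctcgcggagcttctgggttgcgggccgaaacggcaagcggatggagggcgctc
Cry1: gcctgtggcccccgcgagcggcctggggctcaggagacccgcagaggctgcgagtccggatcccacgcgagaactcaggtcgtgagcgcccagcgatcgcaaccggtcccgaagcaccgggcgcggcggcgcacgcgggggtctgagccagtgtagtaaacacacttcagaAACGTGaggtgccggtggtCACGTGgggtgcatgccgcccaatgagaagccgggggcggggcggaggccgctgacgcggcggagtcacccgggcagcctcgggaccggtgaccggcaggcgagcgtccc
Nr1d2: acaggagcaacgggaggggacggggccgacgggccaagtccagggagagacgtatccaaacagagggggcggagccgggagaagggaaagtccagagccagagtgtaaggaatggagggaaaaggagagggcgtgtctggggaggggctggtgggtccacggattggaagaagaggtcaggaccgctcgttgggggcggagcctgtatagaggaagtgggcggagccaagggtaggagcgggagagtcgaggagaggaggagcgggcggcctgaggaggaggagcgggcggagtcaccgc

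*Per1* has 2 windows. The one printed (chr11:69098699-69098998, plus strand) holds 1 E-box, whose first base lies at -166 from the start, and the other (chr11:69099902-69100201) holds neither the E-box nor the variant. The *Cry1* window (chr10:85185005-85185304, minus strand) holds an E-box at -60 and the variant at -79, printed as its reverse complement. The *Nr1d2* window (chr14:18239057-18239356, minus strand) holds neither. Among 32851 RefSeq promoter windows of this length, 7.15% hold CACGTG and 4.68% hold CACGTT, counting either strand. Of the other clock genes, *Cry2* and *Nr1d1* have 1 CACGTT each. *Per3* has a D-box (TTATGTAA, in 0.938% of windows) at 2 places, and 1 of 2 *Arntl* windows has TAGGTCA (in 2.61% of windows), which ROR and REV-ERB receptors bind. The cAMP response element TGACGTCA, in 1.79% of windows, was in none of those found. A match describes letters in a window and was not tested for binding.

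By the GENCODE annotation of mm10, *Per1* lies on chromosome 11 from 69095217 to 69109960 on the plus strand and *Per2* on chromosome 1 from 91415982 to 91459324 on the minus strand. *Cry1* spans 85131700 to 85185064 on chromosome 10, *Nr1d2* 18204054 to 18239127 on chromosome 14, *Arntl* 113207465 to 113314126 on chromosome 7 and *Clock* 76209868 to 76304792 on chromosome 5. Exons of *Dbp* share 539 bases with *Sphk2* on the opposite strand and exons of *Nr1d1* share 263 bases with *Thra*, also opposite. Whether reads were counted by strand is not given in the sources used here, so the counts of these 2 clock genes are uncertain. *Cry2* shares 295 bases with an opposite-strand transcript that had a median of 0 counts in RiboTag.

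At IM3h, *Per1*, *Per2*, *Cry1* and *Nr1d2* were higher than in naïve mice in the RiboTag fraction, by 2.85-fold to 7.43-fold. The same 4 genes were higher in ME. With TMM scaling and all libraries, no clock gene was called lower at this time in either fraction. In bulk samples such as these, fewer cells of a type and less RNA per cell cannot be told apart.

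*Per1*, a repressor of the loop, was at 18.2, 6.10 and 7.11 CPM in the naïve RiboTag libraries and at 65.4, 97.9, 80.1 and 55 CPM in the IM3h libraries. The groups did not overlap. The log2 fold change was 2.89 ± 0.425 (SE; adjusted p = 0.00117, edgeR quasi-likelihood test with Benjamini-Hochberg adjustment, as for all adjusted p below unless another tool is named).

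*Per2*, its paralogue, was at 8.64, 4.52 and 1.90 CPM in naïve and at 40.0, 34.8, 35.0 and 17.1 CPM in IM3h RiboTag libraries. Again the groups were apart, and the log2 fold change was 2.72 ± 0.523 (adjusted p = 0.00573). With libraries scaled by *Actb*, *Hsp90ab1* and *Rplp1* in place of TMM it was 2.52 and was not called (adjusted p = 0.062).

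*Cry1*, which encodes a partner of the PER proteins in repression, had the smallest SE of the 4. It was at 8.26, 7.46 and 10.8 CPM in naïve RiboTag libraries and at 44.0, 51.9, 55.6 and 57.9 CPM at IM3h. Its log2 fold change was 2.62 ± 0.297 (adjusted p = 0.00023).

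*Nr1d2* was at 14.5, 31.4 and 37.2 CPM in naïve and at 101, 92.4, 74.5 and 35.3 CPM in IM3h RiboTag libraries. The lowest IM3h library lay within the naïve range, so these groups overlapped. The log2 fold change was 1.51 ± 0.408 (adjusted p = 0.0296), and the call was lost when any 1 library other than IM3h library 4 was left out, with log2 fold changes of 1.21 to 1.80 and adjusted p of 0.0533 to 0.108. It was also lost with scaling by totals alone (log2 1.32, adjusted p = 0.0878) and by the 3 genes (log2 1.16, adjusted p = 0.333).

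The other 6 clock genes were not called in RiboTag at IM3h. *Arntl*, the activator that REV-ERB proteins repress, was at 23.4, 18.2 and 10.6 CPM in naïve and at 3.17, 11.7, 6.16 and 3.36 CPM at IM3h. Its log2 fold change was -1.45 ± 0.544 (adjusted p = 0.104), and the groups overlapped. Without IM3h library 2 it was called lower (log2 -1.99, adjusted p = 0.0469). *Per3* was at 26.0 to 30.2 CPM in naïve and 12.1 to 25.8 CPM at IM3h, with no overlap but a log2 fold change of only -0.41 ± 0.328 (adjusted p = 0.484). *Clock* stood at 37.0 to 53.9 and 26.8 to 52.3 CPM, *Cry2* at 28.0 to 43.7 and 38.9 to 61.2 CPM and *Nr1d1* at 36.8 to 60 and 16.9 to 55 CPM. *Dbp* had 8 to 14 counts in naïve and 15 to 77 at IM3h (log2 fold change 2.0 ± 0.96, adjusted p = 0.207). With *Sphk2* added to it, the difference was 0.11 on the log2 scale.

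In all, 4 of 10 clock genes were called in RiboTag at IM3h, all of them higher, where 13.3% of the 16053 genes tested were called and 8.86% were called higher. The median log2 fold change was 1.02 over the clock genes and -0.04 over all genes tested. DESeq2 also called 4, and 16.1% of all genes to which it gave an adjusted p. The 4 calls rest on the spread of these 2 groups. With all 4 RiboTag groups sharing 1 estimate of the spread, edgeR called 0 of the 10 and 34 of 17930 genes, and 0 of the 10 and 5.71% of all genes had an unadjusted p under 0.05. The log2 fold changes in that fit were 2.83 for *Per1* (adjusted p = 0.881), 2.66 for *Per2*, 2.56 for *Cry1* and 1.45 for *Nr1d2*. Beside these changes, the summed level of 6 glial markers was 1600 to 1930 CPM in naïve and 1310 to 2820 CPM at IM3h, *Sox10* was at 486 to 1040 and 277 to 405 CPM, and the smooth muscle markers summed to 4880 to 7530 and 1930 to 5010 CPM. Macrophage markers summed to 67.9 to 112 and 41.3 to 83 CPM, with *Cd68* at 0 in every naïve library. The 2 markers of interstitial cells of Cajal summed to 87.3 to 122 CPM in naïve and 23.8 to 47.7 CPM at IM3h, which did not overlap, and the 3 mesothelial markers to 53.8 to 190 and 6.49 to 68.1 CPM. The neuronal markers were at 544 to 1030 and 660 to 1380 CPM and the neutrophil markers at 0 to 3.18 and 2.4 to 10.7 CPM, and their part and that of the other markers was not tested. For a single gene the smallest two-sided p of an exact permutation test with 3 against 4 libraries is 0.0571, which *Per1*, *Per2*, *Per3* and *Cry1* reached. The groups did not overlap for 29.9% of all genes tested in this comparison.

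**Figure D1:**
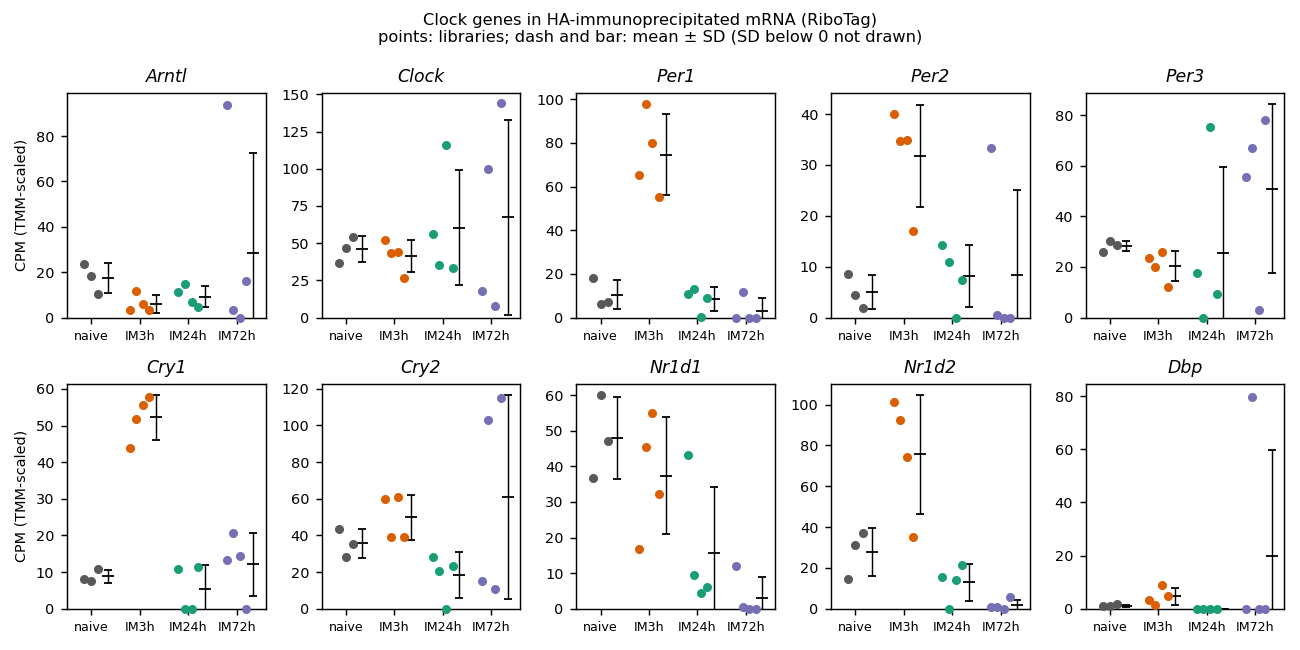
TMM-scaled CPM of each clock gene in every RiboTag library by group (naïve, IM3h, IM24h, IM72h), with the mean and SD of each group beside the points. *Per1*, *Per2* and *Cry1* at IM3h stand above all naïve libraries, and the IM24h and IM72h libraries scatter, with several at 0.

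In ME at IM3h the 4 genes called had log2 fold changes of 0.91 to 2.24. *Per1* was at 8.95, 11.8 and 6.17 CPM in naïve and at 37.5, 53.4 and 29.3 CPM in IM3h ME libraries, with a log2 fold change of 2.24 ± 0.277 (adjusted p = 0.000202). *Cry1* was at 19.2, 15.9 and 22.6 CPM in naïve and at 32.0, 47.2 and 37.6 CPM at IM3h (log2 1.05 ± 0.183, adjusted p = 0.00178). Neither gene's groups overlapped, and neither call was lost when a library was left out. In this comparison the groups did not overlap for 6 of the 9 clock genes tested and for 48.2% of all genes tested.

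*Per2* was at 3.75, 8.18 and 4.24 CPM in naïve and at 12.3, 13.4 and 9.31 CPM at IM3h (log2 1.21 ± 0.328, adjusted p = 0.0182). *Nr1d2* was at 51.5, 29.7 and 30.9 CPM in naïve and at 58.8, 55.3 and 90.9 CPM at IM3h (log2 0.91 ± 0.238, adjusted p = 0.015). The groups were apart for both genes, but each call was lost in 3 of 6 fits without 1 library. These were ME naïve 1 and 3 and IM3h 2 for *Per2* (log2 0.95 to 1.06, adjusted p 0.0729 to 0.0832), and ME naïve 2 and 3 and IM3h 3 for *Nr1d2* (log2 0.67 to 0.78, adjusted p 0.0558 to 0.0768). Scaling by *Actb*, *Hsp90ab1* and *Rplp1* also ended both calls (log2 0.82 and 0.49, adjusted p = 0.0538 and 0.146), and scaling by totals alone ended that of *Nr1d2* (log2 0.64, adjusted p = 0.0744).

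Of the remaining genes, *Arntl* was at 13.3 to 25.2 CPM in naïve and 15.1 to 24.4 CPM at IM3h, *Clock* at 96.2 to 114 and 68.6 to 89.8 CPM, and *Nr1d1* at 26.6 to 57.3 and 32.4 to 41.6 CPM. *Clock* did not overlap between the groups (log2 -0.27 ± 0.131, adjusted p = 0.139), and it was called lower with scaling by totals alone (log2 -0.52, adjusted p = 0.023) and by the 3 genes (log2 -0.67, adjusted p = 0.00174). *Nr1d1* was called lower without ME naïve 3 (log2 -0.52, adjusted p = 0.0373). *Dbp*, at 6 to 56 counts in naïve and 0 to 4 at IM3h, was too low to be tested. In ME at IM3h, 4 of the 9 clock genes tested were called, all higher, where 32.7% of 15333 genes were called and 19.3% were called higher. DESeq2 called 5 clock genes there, and 26.7% of all genes to which it gave an adjusted p. The summed level of 4 neutrophil markers went from 0.484 to 0.861 CPM in naïve to 19.6 to 28.6 CPM at IM3h, that of 6 macrophage markers from 141 to 167 CPM to 118 to 139 CPM, and that of 3 mesothelial markers from 62.3 to 89.1 CPM to 1.03 to 9.31 CPM. The smooth muscle markers went from 22100 to 23700 CPM to 16700 to 19800 CPM, 2 markers of interstitial cells of Cajal from 212 to 223 CPM to 152 to 157 CPM, and 6 neuronal markers from 492 to 498 CPM to 396 to 453 CPM, while 6 glial markers were at 118 to 138 and 132 to 141 CPM. The part of these shifts in the clock gene values was not tested.

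The rise at IM3h was tested for a difference between fractions with an interaction term, RiboTag minus ME. *Cry1* differed, by 1.66 ± 0.34 on the log2 scale (adjusted p = 0.0244), and was higher at IM3h than in every naïve library in 4 of 4 RiboTag and 3 of 3 ME libraries. It was the 1 clock gene of 10 called, where 1.66% of genes were called. The call was lost without ME naïve 1 or 3 or ME IM3h 1 or 3, with differences of 1.51 to 1.66 and adjusted p of 0.0695 to 0.091, and with scaling by the 3 genes (1.54, adjusted p = 0.303). The differences were 0.76 ± 0.529 for *Per1* (adjusted p = 0.574), 1.61 ± 0.658 for *Per2* (adjusted p = 0.261), 0.68 ± 0.531 for *Nr1d2* (adjusted p = 0.635) and -1.61 ± 0.659 for *Arntl* (adjusted p = 0.262), and none of these passed the test. The ME libraries of this contrast came from the *Gfap-cre* line and the RiboTag ones from the *Sox10-icre/ERT2* line.

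Later times in ME gave a different set of changes. At IM72h, *Per1*, *Per2*, *Per3* and *Nr1d2* were higher than in naïve ME by 2.30-fold to 6.29-fold, and *Arntl* and *Clock*, the partners in the activator, were at 0.49 and 0.443 of the naïve level. At IM24h, *Per1* and *Per2* were higher and *Clock* lower. The naïve ME libraries in these comparisons are the same 3 that served IM3h.

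*Clock* was at 96.2, 114 and 98.4 CPM in naïve ME, at 61.2, 80.1, 75.2 and 76.8 CPM at IM24h and at 47.9, 46.2, 44.4 and 47.1 CPM at IM72h. The 4 IM72h libraries lay below every other ME library. The log2 fold change from naïve was -0.49 ± 0.152 at IM24h (adjusted p = 0.0354) and -1.18 ± 0.107 at IM72h (adjusted p = 7.44e-06). From IM24h to IM72h it was -0.70 ± 0.129 (adjusted p = 0.00171), and this was the 1 clock gene of 10 called in that step, where 38.5% of genes were called. With 4 against 4 libraries its exact permutation p was 0.0286, the smallest possible. The IM24h call, unlike the other 2, was lost without ME naïve 1, 2 or 3 or IM24h 1 or 3 (log2 -0.54 to -0.41, adjusted p 0.0698 to 0.125). It also changed sign, to 0.16, when libraries were scaled by their totals alone, and was lost with scaling by the 3 genes (log2 -0.84, adjusted p = 0.0753).

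*Arntl* was at 13.3, 14.0 and 25.2 CPM in naïve ME, at 5.56, 10.4, 17.4 and 13.4 CPM at IM24h and at 8.24, 5.87, 15.3 and 5.92 CPM at IM72h. Each of these groups overlapped naïve, IM72h through its library 3. The log2 fold change was -0.59 ± 0.381 at IM24h (adjusted p = 0.272) and -1.03 ± 0.347 at IM72h (adjusted p = 0.0249). The IM72h call was lost without ME naïve 3, IM72h 2 or IM72h 4 (log2 -0.88 to -0.66, adjusted p 0.0529 to 0.161) and with scaling by totals alone (log2 -0.45, adjusted p = 0.301).

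*Per2* rose at each time in ME. Its libraries were at 39.3, 18.8, 14.6 and 35.7 CPM at IM24h and at 28.2, 41.5, 34.4 and 27.6 CPM at IM72h, all above the highest naïve and IM3h libraries. The log2 fold change from naïve was 2.37 ± 0.43 at IM24h (adjusted p = 0.00278) and 2.65 ± 0.265 at IM72h (adjusted p = 1.39e-05). *Per1* was at 31.9, 40.2, 22.6 and 21 CPM at IM24h and at 18.1, 29.7, 29.7 and 20.9 CPM at IM72h, again above every naïve library. Its log2 fold change from naïve was 1.70 ± 0.307 (adjusted p = 0.00268) and 1.46 ± 0.252 (adjusted p = 0.000553). In order of mean level *Per1* ran IM3h, IM24h, IM72h and naïve, *Per2* ran IM72h, IM24h, IM3h and naïve, and the neighbours that overlapped were IM3h with IM24h and IM24h with IM72h for *Per1* and IM24h with IM72h for *Per2*.

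*Per3*, a paralogue with a lesser role in the loop, was at 7.62, 12.5 and 5.45 CPM in naïve, 7.19, 6.20 and 6.48 CPM at IM3h, 25.8, 13.2, 7.92 and 24.2 CPM at IM24h and 23.5, 35.1, 24 and 33.9 CPM at IM72h. The IM72h libraries did not overlap naïve (log2 1.80 ± 0.267, adjusted p = 0.000192), and the IM24h libraries did (log2 1.09 ± 0.441, adjusted p = 0.0907). At IM24h *Per3* was called without IM24h library 3 (log2 1.34, adjusted p = 0.0347), with totals alone (log2 1.75, adjusted p = 0.00595) and with all 4 groups in 1 fit (log2 1.09, adjusted p = 0.0275). *Nr1d2* was at 84.1, 110, 69.6 and 88.7 CPM at IM72h, above every naïve library (log2 1.20 ± 0.212, adjusted p = 0.000632), a call lost with scaling by the 3 genes (log2 0.59, adjusted p = 0.06). At IM24h it was at 79.8, 66.5, 42.2 and 54.1 CPM (log2 0.69 ± 0.264, adjusted p = 0.0744). It was called there without ME naïve 1 (log2 0.99, adjusted p = 0.0378) or IM24h library 3 (log2 0.84, adjusted p = 0.0425), with totals alone (log2 1.32, adjusted p = 0.00342) and with all 4 groups in 1 fit (log2 0.69, adjusted p = 0.0418).

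*Cry1* did not stay high in ME. It was at 25.6, 10.6, 12.1 and 9.65 CPM at IM24h and at 16.0, 12.7, 18.4 and 8.97 CPM at IM72h, overlapping naïve at both times (log2 -0.42 ± 0.341 and -0.50 ± 0.231, adjusted p = 0.385 and 0.0835). It was called lower at IM24h without IM24h library 1 (log2 -0.84, adjusted p = 0.0313). At IM72h it was called lower without IM72h library 3 (log2 -0.65, adjusted p = 0.0379) and with scaling by the 3 genes (log2 -1.14, adjusted p = 0.00137), while totals alone gave 0.086. From IM3h to IM24h it fell by 1.38 ± 0.327 on the log2 scale (adjusted p = 0.0113), a call lost without ME IM3h 2 (-1.24, adjusted p = 0.0551) and with totals alone (-0.58, adjusted p = 0.176). *Per2* and *Per3* rose over the same interval, by 1.25 ± 0.362 and 1.46 ± 0.409 (adjusted p = 0.0274 and 0.0242). Both of these calls were lost without any 1 of the 3 IM3h libraries or IM24h 1 (log2 1.01 to 1.35 for *Per2*, 1.22 to 1.53 for *Per3*, adjusted p 0.0615 to 0.111), and with scaling by the 3 genes (adjusted p = 0.121 and 0.101).

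*Cry2* and *Nr1d1* were not called at any ME time with TMM scaling and all libraries. *Cry2* was at 17.1 to 19.7 CPM in naïve and 15.7 to 33.5 CPM across IM3h, IM24h and IM72h, and at IM3h its lowest library, at 19.9 CPM, was just above the naïve ones (log2 0.44 ± 0.179, adjusted p = 0.0836). Without IM3h library 3 it was called higher there (log2 0.57, adjusted p = 0.0458). The direction of *Cry2* at the later times depended on the scaling: totals alone called it higher at IM24h and IM72h (log2 0.89 and 0.51, adjusted p = 0.0262 and 0.0151), and the 3 genes called it lower at IM72h (log2 -0.70, adjusted p = 0.00399). *Nr1d1* was at 20.9 to 40.0 CPM at IM24h (log2 -0.60 ± 0.297, adjusted p = 0.157) and 25.8 to 51.7 CPM at IM72h (log2 -0.25 ± 0.29, adjusted p = 0.484). With *Thra* added to it, the log2 differences were -1.16 and -0.36 and both were called (adjusted p = 0.00112 and 0.0116). *Dbp* ran from 0 to 176 counts in ME libraries, while *Sphk2* had 173 to 958.

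The counts called were 3 of 10 at IM24h, where 29% of genes were called, 6 of 10 at IM72h, where 57.5% were called, and 3 of 10 from IM3h to IM24h, where 27.6% were called. The share called among the clock genes was near that of all genes in each. Groups were apart from naïve for 3 of 10 clock genes and 40.9% of all genes tested at IM24h. At IM72h this held for 5 of 10 and 58.8%. From IM3h to IM24h the groups were apart for 3 of 10 and 39.7%, and from IM24h to IM72h for 1 of 10 and 39.2%. Beside these changes, the summed smooth muscle markers were at 22100 to 23700 CPM in naïve ME, 3160 to 10800 CPM at IM24h and 12300 to 20500 CPM at IM72h. The macrophage markers were at 281 to 842 CPM at IM24h and 388 to 519 CPM at IM72h, with all 6 counted in every library. The neutrophil markers summed to 41.6 to 194 and 18.7 to 53.8 CPM, against 0.484 to 0.861 CPM in naïve. The glial markers went from 118 to 138 CPM in naïve to 103 to 137 and 168 to 314 CPM, and 2 markers of interstitial cells of Cajal from 212 to 223 CPM to 123 to 237 and 77.1 to 92.2 CPM. The neuronal markers were at 492 to 498 CPM in naïve, 246 to 365 CPM at IM24h and 339 to 458 CPM at IM72h, and the mesothelial markers at 62.3 to 89.1, 5.5 to 53.9 and 21.8 to 52.8 CPM. The part of cell make-up in the later clock gene values was not tested.

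**Figure D2:**
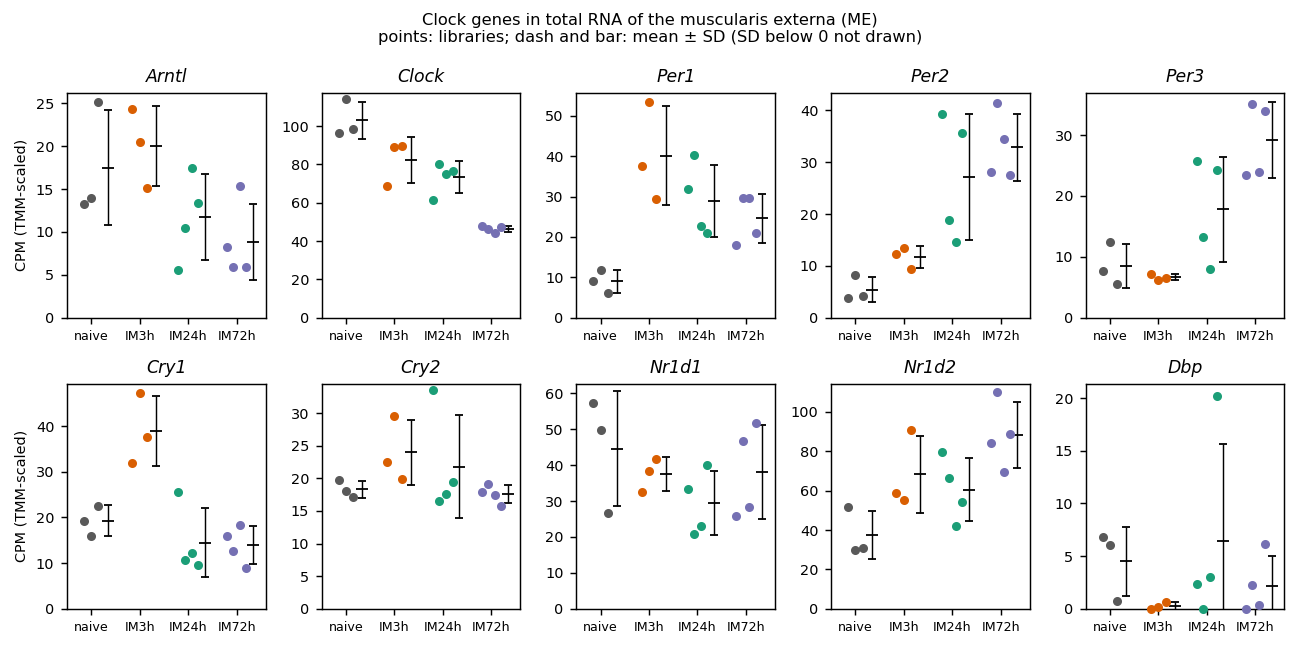
TMM-scaled CPM of each clock gene in every ME library by group, with the mean and SD beside the points. *Clock* steps down to 44.4 to 47.9 CPM at IM72h, while *Per2*, *Per3* and *Nr1d2* are highest at IM72h and *Per1* and *Cry1* at IM3h.

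**Figure D3:**
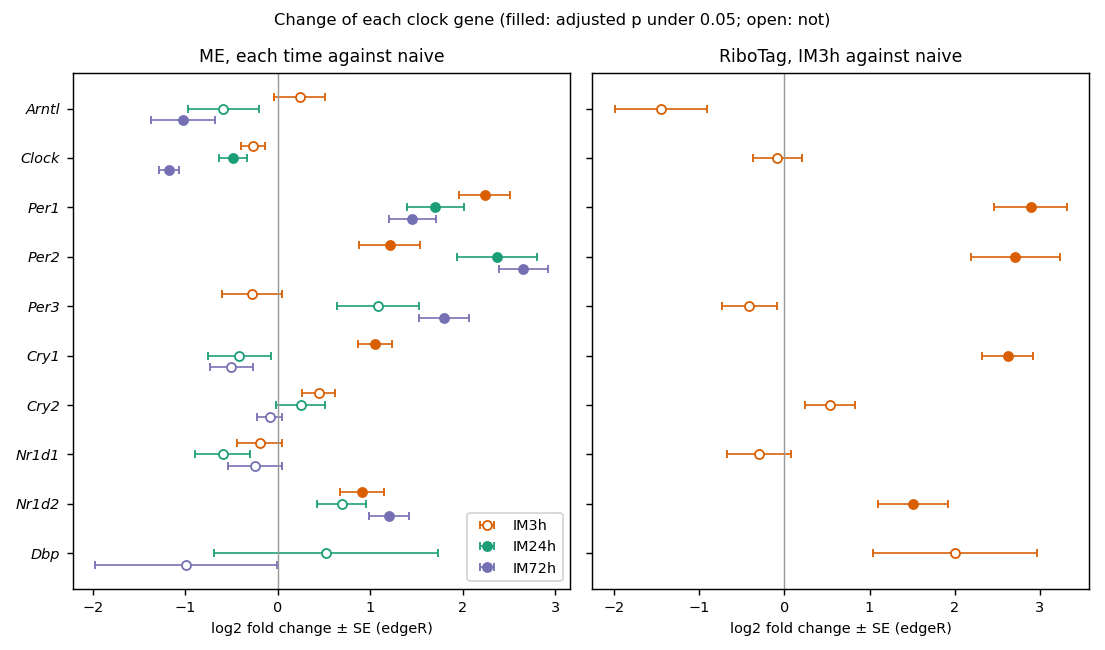
Log2 fold change from naïve with its SE for each clock gene, in ME at IM3h, IM24h and IM72h (left) and in RiboTag at IM3h (right); filled points have an adjusted p under 0.05. *Per1*, *Per2*, *Cry1* and *Nr1d2* are filled at IM3h on both sides, and *Arntl* and *Clock* are filled below 0 in ME at IM72h. *Dbp* at IM3h in ME was not tested.

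A ratio of 2 genes within a library does not depend on how libraries are scaled. The log2 ratio of *Per2* to *Arntl* counts was -2.48 to -1.44 in naïve RiboTag libraries and 1.58 to 3.66 at IM3h. In ME it was -2.57 to -0.77 in naïve, -0.99 to -0.61 at IM3h, -0.26 to 2.82 at IM24h and 1.17 to 2.82 at IM72h. The ranges were apart between naïve and IM3h in RiboTag and between naïve and both later times in ME, but overlapped between naïve and IM3h in ME. The ratio of *Per1* to *Arntl* was -1.58 to -0.36 in naïve and 3.07 to 4.37 at IM3h in RiboTag, and -2.03 to -0.24 and 0.62 to 1.38 in ME. For *Nr1d2* to *Arntl* the ranges were apart in RiboTag, at -0.69 to 1.82 in naïve and 2.99 to 4.99 at IM3h. In ME that ratio was 0.29 to 1.95 in naïve and overlapped it at IM3h (1.27 to 2.59) and IM24h (1.28 to 3.84). At IM72h it was 2.18 to 4.23, apart from naïve. The *Per3* to *Arntl* ratio overlapped between naïve (0.16 to 1.45) and IM3h (0.76 to 2.89) in RiboTag. In ME it was apart from naïve (-2.21 to -0.16) only at IM72h (0.65 to 2.58). The ratio of *Per1* to *Per2* was 1.61 to 1.99 in ME at IM3h and -0.64 to -0.21 at IM72h, so *Per1* outnumbered *Per2* in counts at the first time and not at the last.

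**Figure D4:**
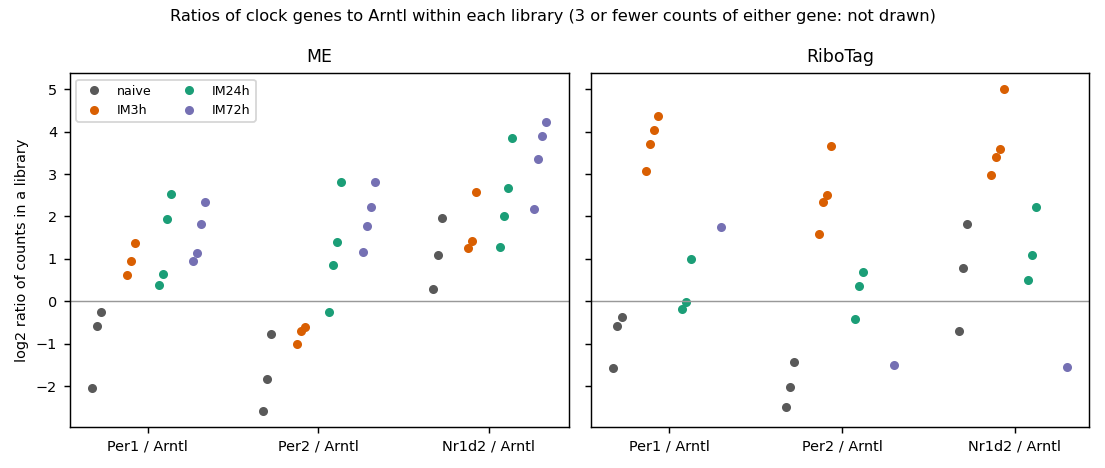
Log2 ratio of the counts of *Per1*, *Per2* and *Nr1d2* to those of *Arntl* in each library, ME left and RiboTag right, coloured by group; libraries with 3 or fewer counts of either gene are left out. The IM3h RiboTag libraries lie at 1.58 to 3.66 for *Per2* against -2.48 to -1.44 in naïve, and 1 IM72h RiboTag library remains for each ratio.

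At IM24h and IM72h the RiboTag libraries gave few usable counts for the clock genes. Over 10 genes and 4 libraries, 10 of 40 values were 0 counts at IM24h and 13 of 40 at IM72h, against none in naïve or IM3h libraries. *Per1* was at 11, 13.1, 0.443 and 9.17 CPM at IM24h, which overlapped naïve, and had 0, 27, 0 and 0 counts at IM72h. *Cry1* had 86, 0, 0 and 59 counts at IM24h and *Nr1d2* had 2, 2, 0 and 9 at IM72h.

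Against naïve, edgeR called 0 of 9 clock genes tested at IM24h, where 0.497% of genes were called, 0 of the 9 and 13.2% of all genes had an unadjusted p under 0.05, and DESeq2 called 0 and 5.45% of all genes. At IM72h edgeR called 0 of 9, where 16.1% of genes were called, 1 clock gene and 22.6% of all genes had an unadjusted p under 0.05, and DESeq2 called 15.2% of all genes and 1 clock gene, *Nr1d2* (log2 -3.72, adjusted p = 0.0457). Single libraries decided further calls. Without IM24h library 1, *Nr1d1* was called lower at IM24h (log2 -2.81, adjusted p = 0.0447). Without IM72h library 1, *Per2* and *Nr1d1* were called lower at IM72h (log2 -4.57 and -7.86, adjusted p = 0.0335 and 0.0282), and without IM72h library 2, *Per1* was (log2 -8.73, adjusted p = 0.019). Where that left a group at 0 counts, the log2 value depends on the prior count.

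From IM3h to IM24h, *Per1* fell by 3.06 ± 0.666 on the log2 scale (adjusted p = 0.0368), the 1 clock gene of 10 called by edgeR, where 1.9% of genes were called. DESeq2 called 4 clock genes and 9.6% of all genes. The IM3h and IM24h libraries of *Per1* did not overlap, and the exact permutation p was 0.0286, the smallest possible. In this comparison the groups did not overlap for 6 of 10 clock genes and 16.1% of all genes tested. The call was lost in 6 of 8 fits without 1 library, all but those without IM24h 1 or 3 (log2 -3.33 to -2.94, adjusted p 0.0662 to 0.14), and with 2 of the 3 other scalings run (adjusted p = 0.0694 with totals alone and 0.0956 with the 3 genes). It was also lost with all 4 groups in 1 fit (log2 -3.14, adjusted p = 0.304). Beside this change, the glial markers in RiboTag summed to 1310 to 2820 CPM at IM3h and 793 to 925 CPM at IM24h, which did not overlap, and *Sox10* was at 277 to 405 and 38 to 420 CPM. The smooth muscle markers summed to 1930 to 5010 and 1320 to 3950 CPM, the neuronal markers to 660 to 1380 and 443 to 853 CPM, and the macrophage markers to 41.3 to 83 and 111 to 144 CPM, the last without overlap. The neutrophil markers were at 2.4 to 10.7 and 0.443 to 44.3 CPM, the markers of interstitial cells of Cajal at 23.8 to 47.7 and 15.8 to 75.5 CPM, and the mesothelial markers at 6.49 to 68.1 and 0 to 89.8 CPM. AY036118 took 2.02% to 10.28% of counts at IM3h and 22.21% to 59.24% at IM24h. Their part in the fall of *Per1* was not tested. From IM24h to IM72h, edgeR called 0 of 9 clock genes and 0% of all genes, with 0 clock genes and 590 of all genes (6.31%) at an unadjusted p under 0.05 and 0 clock genes called by DESeq2.

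The interaction at IM24h held 0 of 10 clock genes in edgeR, where 0.537% of genes were called, 1 clock gene and 13.5% of all genes had an unadjusted p under 0.05, and DESeq2 called 0 clock genes and 4.99% of all genes. At IM72h it held 1 of 10, where 23.3% were called: *Nr1d2* differed by -5.36 ± 1.113 (adjusted p = 0.00296). It was higher than naïve in 4 of 4 ME libraries and lower than naïve in 4 of 4 RiboTag libraries. Within ME the Cre line changed between naïve (*Gfap-cre*) and both later times (*Sox10-icre/ERT2*). Over all genes tested the median of that interaction was -0.98 on the log2 scale, the RiboTag side rests on 0 to 9 counts per library, and AY036118 took 58.02% to 80.08% of counts there. Their part in this difference was not tested.

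Transcripts were assigned by the authors' pipeline from reads near the 3′ end. *Per1-203* held 62.5% of *Per1* counts in naïve RiboTag libraries and 62.5% at IM3h, and 60.9% and 60.3% in ME. By library, *Per1-203* held 60.89% to 62.99% in naïve and 53.04% to 65.73% in IM3h RiboTag libraries. *Per1-206* held 21.2% to 21.9% and 14.9% to 18.4%. *Per2* and *Cry1* had a single listed transcript each. *Per3-205* held 83.1% to 91.0% of *Per3* counts in naïve and 47.0% to 71.3% in IM3h RiboTag libraries, which is a description with no test.

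Of 21 other genes of the clock pathway, 9 of the 19 tested were higher and none lower in ME at IM3h, and 7 of the 20 tested were higher and none lower in RiboTag, where 19.3% and 8.86% of all genes were called higher. The RiboTag count was 1 with scaling by the 3 genes and 0 with all 4 groups in 1 fit. Their median log2 fold change was 0.86 and 0.80, against 0.00 and -0.04 over all genes. *Bhlhe40* (DEC1), a repressor that competes for E-boxes, rose in both fractions, from 5.81 to 9.08 CPM in naïve to 30 to 66 CPM in ME and from 9.84 to 15.2 CPM to 40.1 to 50.8 CPM in RiboTag (log2 2.82 ± 0.289 and 1.77 ± 0.297, adjusted p = 5.98e-05 and 0.00242). *Nfil3* (E4BP4), a D-box repressor, rose in ME from 1.29 to 8.35 CPM to 55.7 to 71.7 CPM (log2 4.0 ± 0.433, adjusted p = 8.27e-05) and stood at 0.113 to 4.83 and 2.21 to 4.21 CPM in RiboTag. *Ciart*, another repressor, had 0 counts in the 3 naïve RiboTag libraries and 15 to 113 at IM3h, at least 14.5-fold higher against a floor of 3 counts per library (adjusted p = 0.00998).

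Clock output genes were among those called in both fractions at IM3h. *Wee1*, a cell cycle kinase, rose by 1.34 ± 0.257 in ME and 2.35 ± 0.453 in RiboTag on the log2 scale (adjusted p = 0.00306 and 0.0057). *Nampt*, of NAD synthesis, rose by 0.86 ± 0.159 and 1.97 ± 0.326 (adjusted p = 0.00253 and 0.00235). *Fbxw11*, a ubiquitin ligase subunit that acts on PER proteins, rose by 1.33 ± 0.13 and 1.77 ± 0.302 (adjusted p = 4.44e-05 and 0.00268), and *Csnk1e*, a PER kinase, by 0.45 ± 0.103 and 1.02 ± 0.251 (adjusted p = 0.0078 and 0.0197). *Csnk1d*, *Rora* and *Bhlhe41* were also called higher in ME and *Usp2* in RiboTag.

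At IM72h in ME, 7 of 19 other clock genes were higher and 4 lower, a share near the 57.5% of all genes called. *Tef*, a D-box activator related to DBP, went from 29.1 to 51.4 CPM in naïve to 110 to 163 CPM (log2 1.57 ± 0.208, adjusted p = 8.55e-05), while *Hlf*, of the same family, went from 29.1 to 32.5 CPM to 12.7 to 16.3 CPM (log2 -1.17 ± 0.136, adjusted p = 3.59e-05). *Rora*, which activates *Arntl*, went from 69.1 to 82.7 CPM to 22.7 to 28.5 CPM (log2 -1.56 ± 0.124, adjusted p = 3.13e-06), and *Npas2*, a stand-in for CLOCK, fell by 0.90 ± 0.279 (adjusted p = 0.0167). At IM24h, *Nfil3*, *Bhlhe40* and *Timeless* were higher and *Rora* lower, 4 of 18 tested, where 29% of all genes were called. In RiboTag, edgeR called 0 of 17 at IM24h (2 at an unadjusted p under 0.05, 0 by DESeq2), where 0.497% of all genes were called, 13.2% had an unadjusted p under 0.05 and DESeq2 called 5.45%, and 2 of 16 at IM72h, where 16.1% of all genes were called. These were *Bhlhe41* and *Cipc*, which were at 0 counts in all 4 libraries, at least 2.44-fold and 6.80-fold lower than naïve against the same floor.

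**Figure D5:**
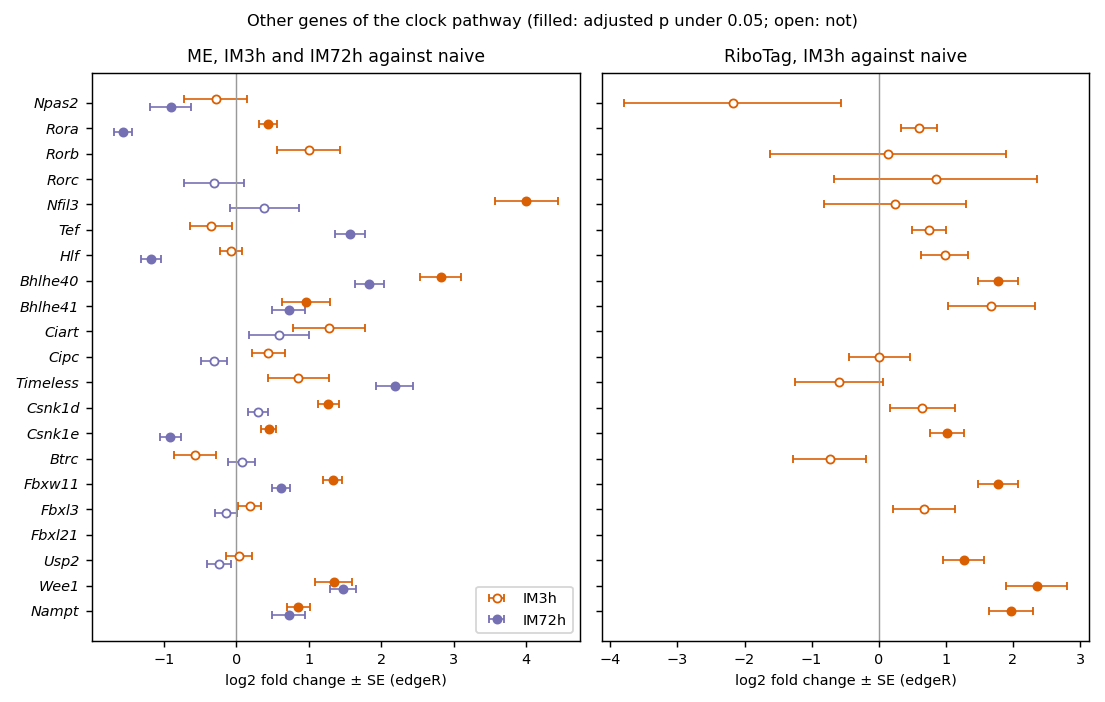
Log2 fold change from naïve with its SE for the other clock pathway genes, in ME at IM3h and IM72h (left) and in RiboTag at IM3h (right); filled points have an adjusted p under 0.05, and genes that were not tested or had 0 counts in a whole group, such as *Ciart* in RiboTag, are left out. *Bhlhe40*, *Fbxw11*, *Wee1* and *Nampt* are filled to the right of 0 at IM3h on both sides.

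Profiles over all libraries were compared with those of *Per1* and *Arntl* by the root mean square difference of log2 CPM centred on naïve. Over 15 RiboTag libraries and 11895 genes, the closest to *Per1* was *Dusp1*, which encodes a MAP kinase phosphatase, at 0.738, followed by *Ttpal*, *Fndc3a*, *Zfp655* and *Bcar3* at up to 0.991. Over 14 ME libraries and 11521 genes the closest to *Per1* were *Rela*, *Rcl1*, *Riox1*, *Katna1* and *Por*, at 0.354 to 0.392, and the closest to *Arntl* were *Wwc1*, *Phox2a*, *Gpd2*, *Srrm2* and *Serpinh1*, at 0.385 to 0.462. In RiboTag the closest to *Arntl* were *Bmp1*, *Clybl*, *Rbpms2*, *Vps13d* and *Ift20*, at 0.964 to 1.06, and the closest to *Dbp* were *1700081N11Rik*, *Ccng2*, *Nhsl1*, *Ssh3* and *Gm11539*, at 1.346 to 1.503. *Dbp* was too low in ME to be compared.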

How the data were processed

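The authors prepared QuantSeq 3′ libraries (single-end, 50 bases), aligned them with STAR 2.5.3 to mm10 after adapter trimming and quantified Ensembl release 99 transcripts in Partek Flow; per the labels, cutadapt was also used. The deposited tables hold estimated counts, per gene for ME and per transcript for both fractions. RiboTag transcripts were summed by symbol and all estimates were rounded to whole counts. Of the 4 naïve RiboTag samples in the labels, 3 have counts, and these serve every RiboTag comparison with naïve. Libraries were numbered in the order of their names. Tables of the authors' own comparisons, which hold fold changes and p-values, were not used.

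Genes kept by filterByExpr were tested with edgeR 4.0.16 (R 4.3.3; TMM, quasi-likelihood, Benjamini-Hochberg over all genes tested, 2 groups per fit, called at an adjusted p under 0.05), with DESeq2 1.42.0 as an alternative. For the difference between fractions, the naïve and operated libraries of both entered 1 model with an interaction term. Levels are CPM on TMM-scaled totals of each fraction, compared per gene by exact two-sided permutation tests (100 tests, lowest adjusted p 0.22). The study counts its replicates as mice, but the labels do not tie libraries to mice, so p-values measure the spread between libraries. The interaction fits treated ME and RiboTag libraries as independent, though those of IM24h and of IM72h may share mice. The members and lists were chosen with earlier results of these data known. All 10 members were named; other clock genes were named where called against naïve, and the 5 genes closest in profile to *Per1*, *Arntl* and *Dbp* among genes of at least 5 CPM. On simulated data with 200 genes changed 4-fold, edgeR found 37.5% of them for RiboTag IM3h, 0% for RiboTag IM24h and IM72h, and 78.5%, 64% and 90% for ME IM3h, IM24h and IM72h. Alternatives were other scalings, no filter, all groups in 1 fit, the study's threshold, AY036118 left out, summed ME transcripts and each library left out; counting *Dbp* with *Sphk2* and *Nr1d1* with *Thra* was added after seeing the data.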

Additional observations from a re-analysis of the deposited data

Results flagged for a closer look

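Of 49 groups of 4 libraries examined, 1 per clock gene and group, 9 had a library whose gap to the next exceeded 0.829 of the range. For independent, normally spread values about 1 in 20 would. These CPM hold many zeros and the genes share libraries, so the 9 cannot be set against that rate. In ME at IM24h, library 1 stood apart for *Cry1* at 25.6 CPM (others 9.65 to 12.1) and for *Cry2* at 33.5 CPM (others 16.5 to 19.4), and library 4 for *Dbp* at 20.2 CPM (others 0 to 3.01). In RiboTag at IM24h, library 1 stood apart for *Nr1d1* at 43.3 CPM (others 4.43 to 9.40). In RiboTag at IM72h, library 1 stood apart for *Per2* at 33.3 CPM (others 0 to 0.44), for *Arntl* at 93.6 CPM (others 0 to 16.0) and for *Nr1d1* at 11.9 CPM (others 0 to 0.44). In the same group, library 2 stood apart for *Per1* at 11.9 CPM and for *Dbp* at 79.6 CPM, with the other 3 libraries at 0 for both.

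The change from naïve differed between RiboTag and ME for *Cry1* at IM3h, by 1.66 on the log2 scale (edgeR, adjusted p = 0.0244), and for *Nr1d2* at IM72h, by -5.36 (adjusted p = 0.00296).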

How the results depend on the processing

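Of 24 called differences of clock genes, 10 kept their direction and call in every alternative fit run: *Per1*, *Per2*, *Per3* and *Clock* in ME at IM72h, *Per1* and *Per2* in ME at IM24h, *Per1* and *Cry1* in ME at IM3h, *Clock* in ME from IM24h to IM72h, and *Nr1d2* in the interaction at IM72h. Of these 10, 9 also passed the study's threshold, all but *Clock* from IM24h to IM72h, whose change was under 2-fold. The fit with all groups and the fit without AY036118 were not run for the interactions, that of *Nr1d2* included. ME IM24h and ME IM72h came from another Cre line than ME naïve, which no alternative fit could address. This holds for the ME side of the interaction at IM72h too. Of 80 differences without a call that were not given as fold changes, 37 changed sign under some alternative. Scaling by totals alone moved the median of all genes, on the log2 scale, by 0.64 and 0.60 in ME at IM24h and IM72h and by -1.73 in RiboTag at IM72h, and scaling by *Actb*, *Hsp90ab1* and *Rplp1* by -0.41, -0.37 and -0.60 in ME at IM3h, IM24h and IM72h.

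The share of all genes called in the same setting stands in brackets after each count here. In RiboTag at IM3h, 2 clock genes were called with scaling by the 3 genes (3.41%) and 0 with all groups in 1 fit (0.19%), and other clock genes numbered 1 and 0. At IM72h against naïve, RiboTag clock genes numbered 1 with totals alone (21.1%), 2 with the 3 genes (22.5%), 1 with DESeq2 (15.2%) and 1 by the study's threshold of an unadjusted p under 0.05 and over 2-fold (22.5%). Other clock genes there numbered 4 with totals alone, 5 with the 3 genes and 0 with no filter (0.154%). At IM24h the study's threshold called 2 other clock genes (12.5%). From IM3h to IM24h, RiboTag clock genes numbered 0 with totals alone (0.613%), the 3 genes (0.366%) and all groups (0.251%), and 4 with DESeq2 (9.6%) and by the study's threshold (14.1%). From IM24h to IM72h all groups gave 1 (3.51%). In ME at IM24h, totals alone (42.9%) and all groups (37.1%) gave 5 clock genes each, and 9 and 7 other clock genes. In ME from IM3h to IM24h, totals alone gave 5 (50.5%) and the 3 genes 1 (11.5%). From IM24h to IM72h the study's threshold gave 0 (25.2%), and *Nr1d1* with *Thra* as 1 gene gave 2 (38.5%). The study's threshold gave 6 other clock genes in ME at IM72h (32.8%). The interaction at IM3h gave 0 with the 3 genes (0.221%), 2 with DESeq2 (4.35%) and 4 by the study's threshold (11.2%), and at IM24h 1 by that threshold (13.1%). At IM72h it gave 4 with totals alone (43%), and 2 with the 3 genes (29.2%), DESeq2 (28.3%) and that threshold (33.2%).

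With the range of the share of all genes called in brackets, leaving out 1 library gave 0 to 1 clock genes in RiboTag at IM24h (0% to 3.36%), 0 to 2 at IM72h (8.72% to 28.8%) and 0 to 1 from IM3h to IM24h (0.324% to 3.61%). It gave 0 to 4 in ME from IM3h to IM24h (15.1% to 34.9%) and 1 to 2 from IM24h to IM72h (29.2% to 42.5%). The interactions gave 0 to 2 at IM3h (0.423% to 3.83%), 0 to 1 at IM24h (0.0325% to 4.87%) and 1 to 3 at IM72h (18% to 37.3%), and other clock genes in RiboTag at IM72h numbered 1 to 4 (8.72% to 28.8%). It gave log2 values of -0.21 to 0.072 for *Clock* in RiboTag at IM3h, -0.59 to 0.078 for *Per3* in ME at IM3h, and -1.32 to 0.98 for *Dbp* and -0.034 to 0.36 for *Cry2* in ME at IM24h.

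With totals alone, the sign changed for *Arntl* in ME at IM3h (-0.038), for *Cry1* (0.21), *Arntl* (0.028), *Clock* (0.16) and *Nr1d1* (0.057) in ME at IM24h, and for *Cry1* (0.086), *Cry2* (0.51) and *Nr1d1* (0.37) in ME at IM72h. With the 3 genes it changed for *Arntl* in ME at IM3h (-0.17) and *Cry2* at IM24h (-0.16), with no filter for *Cry2* at IM72h (0.014), and with *Sphk2* added for *Dbp* at IM24h (-0.28) and IM72h (0.37). The causes were not tested. No paired analysis was possible because the rows of the tables carry no replicate numbers.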
